A study of Mus musculus with 6 samples.

Results

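Of the 59485 genes in the table, 8 were described here, chosen by their symbols: Serpina3f, Serpina3g, Serpina3i, Serpina3m and Serpina3n of the Serpina3 family, and Saa3, Lcn2 and Hp, which encode secreted acute-phase proteins. RNA-seq was carried out on whole sciatic nerves of mice at postnatal day 4 (P4), with 3 libraries from control animals whose genotype is labelled wild-type and 3 from mutants labelled Ht-PA-Cre; Adar1fl/fl;R26R, 1 animal per library. In the mutants, Cre driven by the human tissue plasminogen activator promoter is active in the neural crest (NC) and its derivatives, among them the Schwann cells (SCs) of the nerve, where it recombines the floxed Adar alleles, and R26R is a Cre reporter. Cells of the nerve that do not come from the NC keep their Adar alleles in this model. Values are counts of reads on each gene divided by the size factor of the library, and the libraries held 50938349 to 78250094 reads on genes.

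The acute-phase response is the change in secreted proteins that follows infection or tissue injury. It is best known from hepatocytes, where IL-6, IL-1 and TNF act through STAT3, C/EBP factors and NF-kappaB, but many of its genes are also switched on in tissues outside the liver, including injured nervous tissue. Serpins are protease inhibitors that trap their target by a change of shape, and the locus of human SERPINA3 (antichymotrypsin) has been duplicated into a cluster of Serpina3 genes in the mouse. Serum amyloid A proteins bind lipoproteins and leukocyte receptors, lipocalin 2 withholds iron by binding siderophores, and haptoglobin captures free haemoglobin.

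The targeted gene went against its label. Adar (chr3:89715022-89753454) had normalized read counts of 1602, 2066 and 1133 in the control-labelled libraries and 11768, 9311 and 9773 in the mutant-labelled ones, with a log2 fold change of 2.72 (SE 0.20, adjusted p = 4.1e-05, limma). The table holds 1 value per gene, so reads from the floxed segment could not be told from the rest, and groups are named here by their labels. Of 6 Schwann cell markers, 4 were lower past the threshold defined below, among them S100b at -3.07 and Erbb3 at -1.55 on the log2 scale, against 10.4% of all genes tested. Sox10 (-0.71) and Foxd3 (-0.38) were under 2-fold. Whole nerve was sequenced, so fewer cells of a type and less RNA per cell cannot be told apart. Of 6 skeletal muscle markers, 5 were higher past the threshold, against 13.9% of all genes tested, and their summed level was 6110 to 32211 in the control-labelled and 40330 to 306302 in the mutant-labelled libraries, highest in mutant replicate 3.

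A gene was called past the threshold when its limma p was at or under 0.05 and its change at least 2-fold, on log2(value + 1). Of the 8 genes, 7 had a mean of at least 10 in 1 of the genotypes and could be tested, and Serpina3m could not. All 7 tested genes were higher in the mutant-labelled libraries and past the threshold, against a background of 13.9% of the 25802 genes tested that were called higher. With an adjusted p in place of the unadjusted one, 6 of the 7 were called and Hp was not, against a background of 11.5%. In each of the 7, every mutant-labelled library lay above every control-labelled one, which held for 25.9% of all genes tested. Their median log2 fold change was 4.90 and that of all tested genes 0.03. Serpina3i and Saa3 reached the filter through their mutant-labelled values alone, so the count over tested genes is a description and not a measure of how unusual the group is. The table gives no lengths of the counted regions, so levels were not compared between genes.

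**Figure D1:**
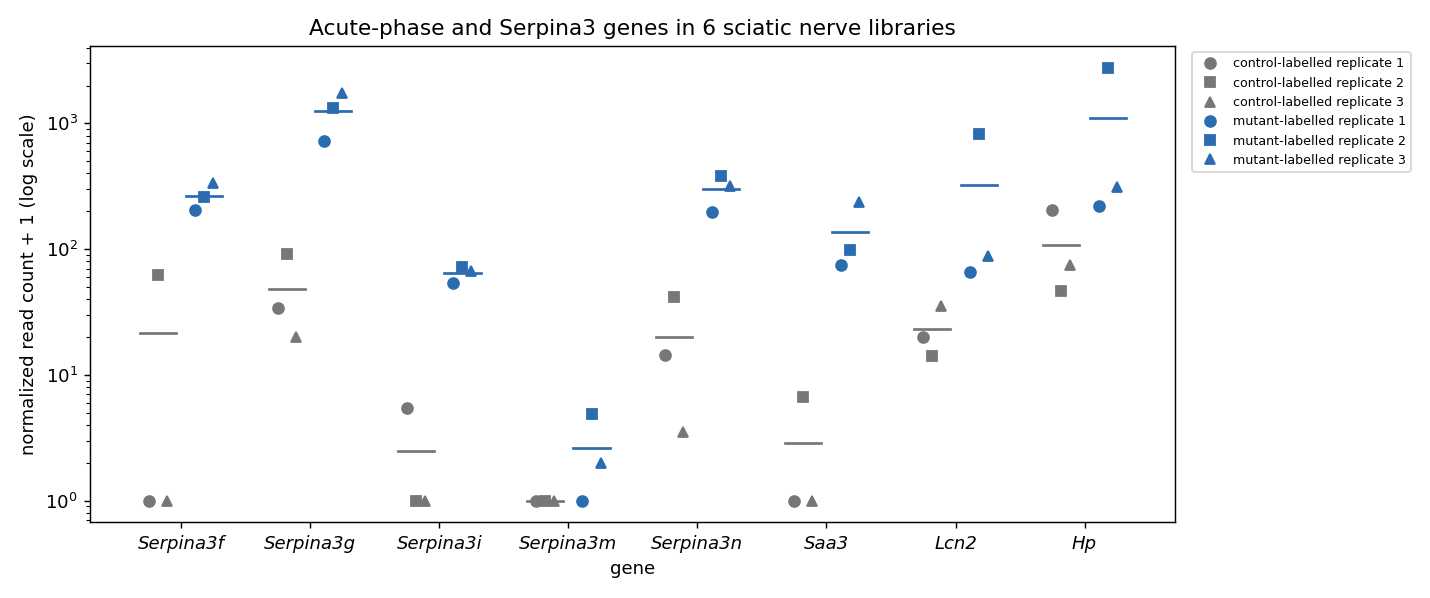
Normalized read count plus 1 on a log scale for the 8 genes, with grey points for the 3 control-labelled and blue points for the 3 mutant-labelled libraries and a line at each group's mean. For every gene but Serpina3m the 3 blue points lie above the 3 grey ones, and for Lcn2 and Hp mutant replicate 2 stands far above the other two.

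Serpina3g, also known as Spi2A, is an inhibitor kept inside the cell that blocks cysteine cathepsins as well as serine proteases. It lies at chr12:104236147-104241944 on the plus strand (mm10). Its normalized read counts were 33.3, 89.8 and 19.0 in the control-labelled libraries and 717, 1327 and 1734 in the mutant-labelled ones. The lowest mutant-labelled value was well above the highest control-labelled value, and control replicate 2 was the highest of its group. The group means were 47.4 ± 37.4 and 1259 ± 512 (SD, n = 3 each), 26.6 times apart. The log2 fold change was 4.90 (SE 0.55, adjusted p = 0.000293), and leaving out each library in turn gave 4.41 to 5.50, the highest without control replicate 2.

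Serpina3n encodes a secreted inhibitor that blocks granzyme B and leukocyte elastase, and it is widely used as a marker of reactive astrocytes. Its gene is at chr12:104406708-104414329, plus strand. Control-labelled libraries had 13.3, 40.6 and 2.53 normalized reads and mutant-labelled libraries 196, 382 and 319. Again the groups did not overlap and control replicate 2 was the highest of its group. The means were 18.8 ± 19.6 and 299 ± 94.9, a ratio of 15.9, with a log2 fold change of 4.49 (SE 0.81, adjusted p = 0.00337). Without control replicate 3 the log2 fold change was 3.57 and without control replicate 2 it was 5.34, the extremes of the 6 leave-one-out fits, and both were past the threshold.

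Serpina3f, at chr12:104214543-104221129 on the plus strand, encodes a close relative of Serpina3g. No read was counted in control replicates 1 and 3, and control replicate 2 had 61.4 normalized reads from 65 reads. The mutant-labelled libraries had 204, 258 and 335. The control-labelled mean of 20.5 ± 35.5 therefore came from 1 library, against 266 ± 66.2 in the mutant-labelled group. The log2 fold change was 6.04 (SE 1.44, adjusted p = 0.0126) in limma, 3.64 in edgeR (adjusted p = 0.053) and 3.69 in DESeq2, where the call was lost (adjusted p = 0.229). Without control replicate 2 both remaining control-labelled libraries were at 0, and the fitted value of 8.03 then depended on the pseudocount.

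Serpina3i (chr12:104263122-104269365, plus strand) was close to absent from the control-labelled libraries, which had 4.44, 0 and 0 normalized reads, the first from 4 reads. The mutant-labelled libraries had 52.4, 71.4 and 66.3, the narrowest spread of the 7 tested genes relative to the mean (63.3 ± 9.84). The log2 fold change was 5.18 (SE 0.85, adjusted p = 0.00207). The leave-one-out fits were all past the threshold, from 4.77 to a value of 6.0 without control replicate 1, when both remaining control-labelled libraries were at 0. Serpina3m (chr12:104387164-104394258) had no reads in any control-labelled library or in mutant replicate 1, 4 reads in mutant replicate 2 and 1 read in mutant replicate 3. A count of 0 allows up to 3 reads in a library, so no fold is given for it.

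The Serpina3 genes lie side by side on chromosome 12, within a cluster of Serpina genes that spans chr12:103614786-104414329, or 799.5 kb. The list of the cluster held 22 genes in 20 rows of the table, since Serpina1a, Serpina1b and Serpina1c share a row. Of these rows, 10 could be tested, and 9 were past the threshold and higher in the mutant-labelled libraries, against the 13.9% of all genes tested. Serpina3b, Serpina3i, Serpina10 and the Serpina1 row reached the filter through their mutant-labelled values alone, so the count is a description. None was lower, and the median log2 fold change was 4.71. Summed over the 11 Serpina3 genes, the control-labelled libraries had 131, 229.6 and 49.4 normalized reads and the mutant-labelled libraries 1357, 2536 and 2965, a ratio of means of 16.7.

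Besides the genes described above, Serpina3b, Serpina3c and Serpina3h rose. Serpina3b was at 0 in every control-labelled library and at 23.3, 5.79 and 23.7 in the mutant-labelled ones, at least 5.30-fold higher when the controls are set at 3 reads per library (adjusted p = 0.0121). Serpina3c, which lies on the minus strand unlike its neighbours, had the smallest change, from 26.7, 13.2 and 27.9 to 61.1, 105 and 53.4 (log2 fold change 1.66, SE 0.50, adjusted p = 0.0324). Serpina3h is annotated as a transcribed pseudogene and had 53.3, 22.7 and 0 against 96.7, 369 and 431 normalized reads (4.52, SE 1.35, adjusted p = 0.0312). The groups did not overlap in any of the 3. Serpina3j had no reads, and Serpina3a and Serpina3k were under the filter, with group means of 0.630 and 0 in the control-labelled and 6.28 and 1.29 in the mutant-labelled libraries.

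Outside the Serpina3 family, 9 rows of the list held the other Serpina genes, and 2 of them were higher past the threshold. Serpina10, an inhibitor of coagulation factor Xa, was at 0 in the control-labelled libraries and at 27.6, 39.6 and 25.7 in the mutant-labelled ones, at least 9.32-fold higher (adjusted p = 0.00162). The shared row of Serpina1a, Serpina1b and Serpina1c, the mouse copies of alpha-1-antitrypsin, had 22.2, 0 and 0 against 32.0, 322 and 198 (log2 fold change 5.49, SE 1.35, adjusted p = 0.0143), and reads of these near-identical copies cannot be assigned to 1 of them. Serpina9 was the tested gene of the cluster that did not pass, at -1.36 (SE 1.09, adjusted p = 0.369), and it reached the filter through its control-labelled values alone. Serpina6 had no reads. Serpina1d, Serpina1e, Serpina11 and Serpina12 were too low to test, with no reads in any control-labelled library and reads in 2 of the 3 mutant-labelled ones, at group means of 5.51, 9.83, 5.89 and 8.72 normalized reads. Serpina5 had 2 reads in mutant replicate 3 and none elsewhere.

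**Figure D2:**
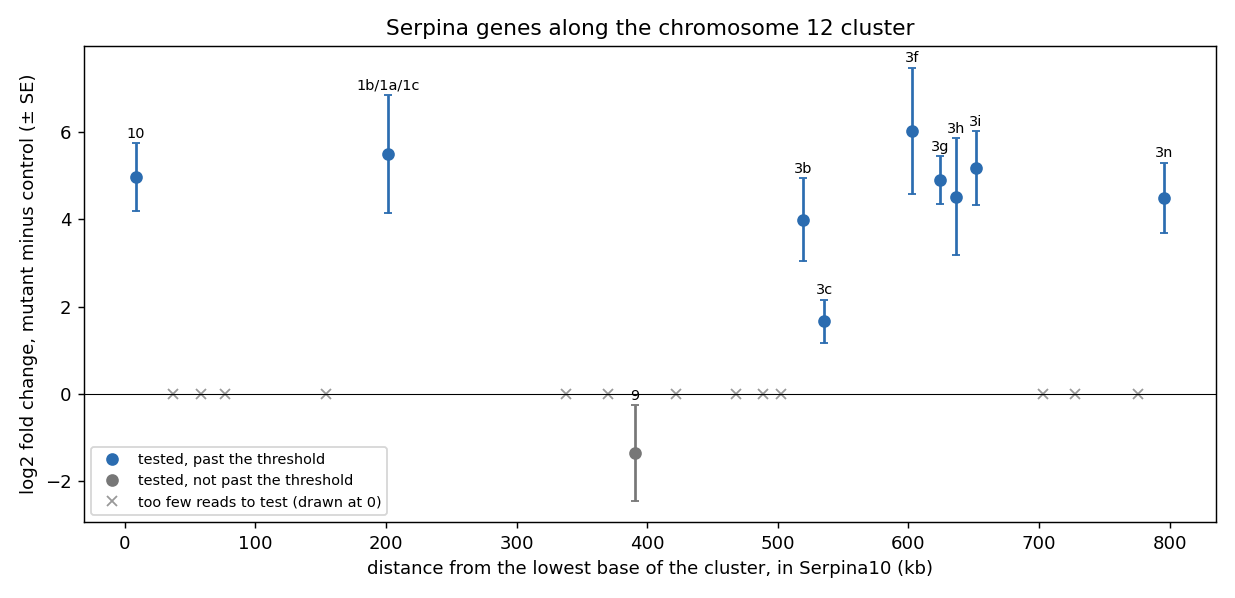
Log2 fold change with its SE for each tested Serpina gene of the chromosome 12 cluster against its distance in kb from the lowest base of the cluster, with a cross at 0 for each row with too few reads to test, 3 rows outside the list included. Of the 10 tested rows, 9 are above 0 and past the threshold, and Serpina9, in grey, is below 0.

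The family is alike in sequence, so reads could in principle be shared between its genes. In GENCODE transcripts, Serpina3f and Serpina3g were 88.9% identical over 1756 aligned columns, Serpina3f and Serpina3i 87.8% over 1987, and Serpina3h and Serpina3i 94% over 1049. Stretches of 130 bases, the length of a read, rarely occurred in a second gene without a mismatch. They made up 0.224% of the windows in Serpina3f, 0.262% in Serpina3g, 0.419% in Serpina3i and 2.29% in Serpina3m, which shared them with Serpina3k. Serpina3n, Saa3, Lcn2 and Hp had none.

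The 250 bases before the start sites of 6 of the genes past the threshold are shown, to set side by side what they share and where they differ. The RefSeq promoter table (GRCm38.p6) held 6 of the 8 genes, without Hp and Serpina3m. Each sequence is written 5′ to 3′ on the strand of the gene and ends at the base before the start. Capitals mark matches, on either strand, to TTCNNNGAA (the core of a STAT site), TTGCNNAA (a C/EBP site), GAAANNGAAA (an interferon-stimulated response element) and the NF-kappaB site. The windows are chr12:104235897-104236146 for Serpina3g, chr12:104262872-104263121 for Serpina3i, chr12:104214294-104214543 for the first of 2 starts of Serpina3f and chr12:104406458-104406707 for Serpina3n, all on the plus strand, with chr7:46715677-46715926 for Saa3 and chr2:32387740-32387989 for Lcn2 on the minus strand.
Serpina3g: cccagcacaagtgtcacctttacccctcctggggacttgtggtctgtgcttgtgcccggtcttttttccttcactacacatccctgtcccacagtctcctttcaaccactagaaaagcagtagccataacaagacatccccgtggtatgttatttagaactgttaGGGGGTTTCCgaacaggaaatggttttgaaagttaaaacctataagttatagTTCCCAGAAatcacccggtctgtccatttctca
Serpina3i: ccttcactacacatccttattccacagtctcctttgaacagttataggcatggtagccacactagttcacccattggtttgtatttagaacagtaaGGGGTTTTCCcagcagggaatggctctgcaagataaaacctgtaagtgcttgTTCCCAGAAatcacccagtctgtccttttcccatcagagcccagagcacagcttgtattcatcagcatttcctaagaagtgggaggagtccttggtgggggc
Serpina3f: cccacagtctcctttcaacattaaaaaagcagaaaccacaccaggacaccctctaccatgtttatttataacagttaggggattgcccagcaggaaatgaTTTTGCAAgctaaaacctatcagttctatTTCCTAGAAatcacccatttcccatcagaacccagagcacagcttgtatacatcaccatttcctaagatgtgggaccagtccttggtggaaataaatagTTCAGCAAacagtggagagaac
Serpina3n: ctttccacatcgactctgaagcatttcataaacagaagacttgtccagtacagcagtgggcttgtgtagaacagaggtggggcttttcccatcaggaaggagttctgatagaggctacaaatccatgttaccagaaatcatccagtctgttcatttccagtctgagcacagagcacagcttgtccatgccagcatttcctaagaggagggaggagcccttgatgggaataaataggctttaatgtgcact
Saa3: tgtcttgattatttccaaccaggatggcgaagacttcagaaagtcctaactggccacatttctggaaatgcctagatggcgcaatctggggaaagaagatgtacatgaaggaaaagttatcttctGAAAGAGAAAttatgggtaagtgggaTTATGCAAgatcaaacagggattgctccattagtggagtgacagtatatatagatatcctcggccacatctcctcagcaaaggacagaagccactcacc
Lcn2: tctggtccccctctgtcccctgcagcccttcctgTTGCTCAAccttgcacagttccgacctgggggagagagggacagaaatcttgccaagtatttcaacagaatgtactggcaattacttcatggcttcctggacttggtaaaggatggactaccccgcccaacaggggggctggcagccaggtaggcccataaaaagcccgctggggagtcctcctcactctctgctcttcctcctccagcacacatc

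Serpina3g and Serpina3i each held an NF-kappaB match followed by a STAT match, with 52 bases from the start of the first to the start of the second. The pair began 85 bases before the start in Serpina3g and 154 in Serpina3i. Both motifs together were found in 164 of 32851 promoter windows of the same length, or 0.499%. Serpina3f had a STAT match at 121 bases and C/EBP matches at 150 and 22 bases, and the windows of Serpina3f and Serpina3i were 77.7% identical over 229 aligned columns. Saa3 had the response element at 125 bases and a C/EBP match at 99 bases, Lcn2 a C/EBP match at 216 bases, and Serpina3n no match. Over all promoter windows, 7.02% held the STAT motif, 9.56% the C/EBP motif, 2.98% the response element and 7.25% the NF-kappaB motif. A match says only that these letters are in the window.

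Saa3 encodes the serum amyloid A that is made mainly outside the liver, by macrophages, fat and epithelia. The gene is at chr7:46711998-46715676 on the minus strand. Reads were found in control replicate 2 alone, at 5.67 normalized reads, and control replicates 1 and 3 were at 0. The mutant-labelled libraries had 74.2, 97.4 and 236. All 3 were above every control-labelled library, and mutant replicate 3, which also had the most muscle marker reads, was the highest. Mutant replicate 3 was also the highest library for Serpina3f, Serpina3g and Serpina3h. The part of muscle RNA in these values was not tested. The means were 1.89 ± 3.27 and 136 ± 87.7, with a log2 fold change of 6.0 (SE 0.91, adjusted p = 0.00142). Without mutant replicate 3 it was 5.51, without control replicate 2, with both remaining control-labelled libraries at 0, it was 6.91, and each of the 6 leave-one-out fits was past the threshold.

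Lcn2 (chr2:32384637-32387771, minus strand) encodes lipocalin 2. It was counted at 18.9, 13.2 and 34.2 in the control-labelled libraries and at 64.7, 820.1 and 87.0 in the mutant-labelled libraries. The groups did not overlap, but mutant replicate 2 was far above the other mutant-labelled libraries, so that the mutant-labelled SD of 429.8 exceeded the mean of 324. The log2 fold change was 2.97 (SE 0.90, adjusted p = 0.0336). Without mutant replicate 2 it was 1.82. Each of the 6 leave-one-out fits kept Lcn2 past the threshold by the unadjusted p, but limma's adjusted p ran from 0.0282 to 0.0955 over them.

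Hp (chr8:109575128-109579172, minus strand) encodes haptoglobin. The control-labelled values were 202, 45.4 and 73.5 and the mutant-labelled values 219.7, 2779.7 and 309.6. Mutant replicate 1 was only slightly above control replicate 1, and mutant replicate 2 again stood apart. The log2 fold change was 2.70 (SE 0.92, adjusted p = 0.0513), past the threshold by the unadjusted p alone. It was 1.56 without mutant replicate 2 (adjusted p = 0.0988), and 2.23 without control replicate 2 (adjusted p = 0.149), where the unadjusted p missed the threshold too. DESeq2 gave no p for Lcn2 or Hp.

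Mutant replicate 2 was also the library with the most adipocyte RNA. Adipoq, which encodes the fat hormone adiponectin, had 1134, 7.56 and 362 normalized reads in the control-labelled libraries and 16.7, 4955 and 13.8 in the mutant-labelled ones. The 7 adipocyte markers summed to 5400 to 12401 in the control-labelled libraries and to 3209, 26664 and 4336 in the mutant-labelled ones, and 0 of 7 passed the threshold. Control replicate 1, the highest control-labelled library for Hp, was the highest of its group for Adipoq as well. Fat cells are known to make haptoglobin and lipocalin 2, and the part of adipocyte RNA in these values was not tested. Mutant replicates 1 and 3 had fewer Adipoq reads than control replicates 1 and 3 and more than control replicate 2. Their Lcn2 and Hp reads were above those of all 3 control-labelled libraries. Control replicate 2 was the lowest of all libraries for Adipoq, Lcn2 and Hp. With control replicate 2 and mutant replicate 2 both left out, a fit added after the values were seen, the log2 fold change was 1.52 for Lcn2 (adjusted p = 0.112) and 1.09 for Hp (adjusted p = 0.193). By the unadjusted p, Lcn2 was past the threshold in this fit and Hp was not.

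**Figure D3:**
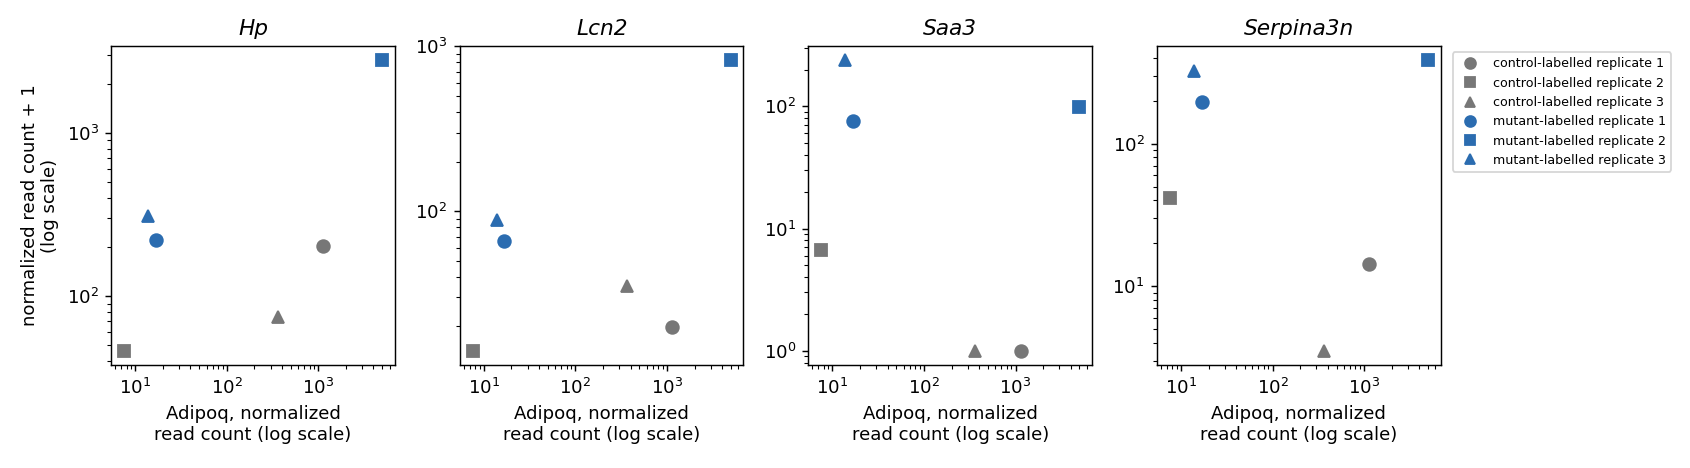
Normalized read count plus 1 of Hp, Lcn2, Saa3 and Serpina3n against the normalized read count of Adipoq in the 6 libraries, both on log scales, grey for control-labelled and blue for mutant-labelled. Mutant replicate 2 (blue square) is highest in Adipoq, Hp and Lcn2 and, by less, in Serpina3n (382 against 319 and 196), while for Saa3 it lies between the other two mutant-labelled libraries.

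Markers of other cell types were examined in the same way, beside the background shares of 13.9% higher and 10.4% lower. Neutrophils store lipocalin 2 and haptoglobin in their granules, and 0 of the 7 tested neutrophil markers passed the threshold. All of the 7 had a log2 fold change above 0, with a median of 0.98, against 0.03 for all genes tested. Summed over all 10 listed, their level was 62.4 to 242 in the control-labelled and 101 to 722 in the mutant-labelled libraries, highest in mutant replicate 1, where Lcn2 and Hp were the lowest of the mutant-labelled group. Ly6g, which defines neutrophils, was at 0 in every control-labelled library and at 2.91, 0 and 5.93 in the mutant-labelled ones. Hepatocyte markers summed to 58.3 to 119 in the control-labelled and 121 to 151 in the mutant-labelled libraries. Among them Alb, which encodes albumin, was at 0, 3.78 and 5.07 against 0, 23.2 and 9.89, and Serpinc1 was the 1 of 7 tested that passed. Of 8 macrophage markers none was higher past the threshold and 3 were lower, namely Csf1r at -1.25, Cx3cr1 at -1.83 and Mrc1 at -2.27. No endothelial marker of 6 passed, and of 5 fibroblast markers Col1a1 (-1.10) and Col1a2 (-1.01) were lower. The part of these cell types in the 8 genes was not tested.

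**Figure D4:**
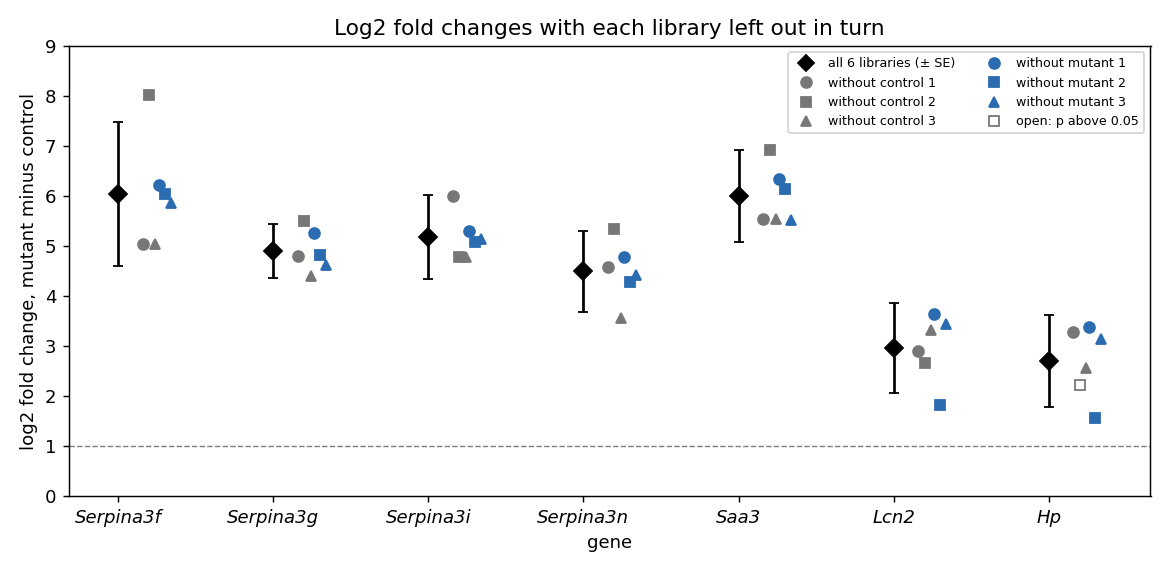
Log2 fold change of the 7 tested genes with all 6 libraries (black diamond, with SE) and after leaving out 1 library at a time (grey, a control-labelled library left out, and blue, a mutant-labelled one, with an open symbol where the p was above 0.05). Each value is above the dashed line at 1, which marks 2-fold, and the lowest values of Lcn2 (1.82) and Hp (1.56) are those without mutant replicate 2.

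Upstream signals of the acute-phase response were mostly higher. Of 24 cytokines, receptors and transcription factors, 18 were past the threshold and higher and none was lower, with a median log2 fold change of 1.78. Over all genes tested, the shares were 13.9% higher and 10.4% lower. Il6, Il1a and Il1b reached the filter through their mutant-labelled values alone. Il6, the main inducer of the hepatic response, had 9.99, 0 and 0 normalized reads in the control-labelled libraries and 508, 479 and 412 in the mutant-labelled ones (7.71, SE 0.91, adjusted p = 0.000381). Lif, a cytokine of the same family that is known to be induced in injured nerve, had 414, 387 and 274 against 8586, 9741 and 7782 (4.61, SE 0.17, adjusted p = 2.26e-06). The receptor subunit Osmr, which binds oncostatin M, rose from a mean of 78.9 ± 52.8 to 722 ± 140.0 (3.42). Il6st, the gp130 subunit that these receptors share, rose by 1.13, and Lifr, the receptor subunit for LIF, was not past the threshold at -0.54.

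Among the transcription factors that act on acute-phase genes, Stat3 had a log2 fold change of 1.36. Cebpb rose from 729 ± 174 to 4500.4 ± 231 and Cebpd from 1129 ± 128 to 8686 ± 56.0, log2 fold changes of 2.65 and 2.95. Socs3, the feedback inhibitor that STAT3 induces, rose by 2.95 on the log2 scale, from 634, 907 and 632 to 5953, 5997 and 4739.6 normalized reads. Of the NF-kappaB subunits, Nfkb2 rose by 1.83, Relb by 1.97 and Rel by 1.45, and Nfkb1 (0.81) and Rela (0.45) stayed under 2-fold. The groups of every gene named in this paragraph did not overlap, and over all genes tested every mutant-labelled library was above every control-labelled one for 25.9%.

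Of 21 other acute-phase genes listed, 13 could be tested, 4 were higher and 1 was lower past the threshold, beside background shares of 13.9% and 10.4%, and their median log2 fold change was 0.45. The share of lower genes, 1 of 13, was near the background. Saa2 reached the filter through its mutant-labelled values alone. Ptx3, a pentraxin made locally by stromal and myeloid cells, had 62.2, 32.1 and 43.1 against 539, 477 and 620.1 normalized reads (3.59, SE 0.30, adjusted p = 6.63e-05). Lbp, which presents bacterial lipopolysaccharide to its receptor, rose from 1310.0 ± 312 to 4776 ± 1395 (1.85, adjusted p = 0.000802), and Hpx, which binds free haem, rose by 1.75 (adjusted p = 0.0156). Saa2 rose from 4.32 ± 1.84 to 26.1 ± 11.3 (2.33, adjusted p = 0.0316), and Saa1 had 17.2 ± 8.60 and 12.3 ± 8.66 (-0.53, adjusted p = 0.627). Saa1 and Saa2 are near-identical copies, and how their reads were divided between them is uncertain.

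A2m, a broad protease inhibitor of plasma, fell by 3.09 on the log2 scale, from 695, 908 and 1044 to 148, 76.2 and 91.0 normalized reads (adjusted p = 0.000107). The metallothionein Mt1 and the ferroxidase Cp, the non-passing genes with the highest means, had log2 fold changes of 0.86 and 0.44. The classical liver products Apcs and Orm3 had no reads, and Crp had means of 6.30 and 6.33. Orm1 had 40.0, 16.1 and 8.87 normalized reads in the control-labelled libraries and 0, 91.7 and 0 in the mutant-labelled ones. Itih4 had 31.1, 3.78 and 7.60 against 0.727, 57.9 and 10.9. Neither was past the threshold, and mutant replicate 2 was the highest library for both.

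Receptors and binding partners of the 8 proteins split between the directions, with 5 of 12 higher and 4 lower past the threshold and a median of -0.19. Background shares were 13.9% higher, as above, and 10.4% lower. Without mutant replicate 1 the higher calls were 3 and not 5. For lipocalin 2, the receptor gene Slc22a17 fell by 2.73 on the log2 scale, from 7824, 9228 and 9475 to 1815, 1241 and 1041 normalized reads (adjusted p = 3.01e-05), while Lrp2, which encodes the receptor megalin, rose by 1.27 (adjusted p = 0.0473) and Mmp9, whose protease lipocalin 2 binds, by 2.56 (adjusted p = 0.0491). For haptoglobin, the scavenger receptor gene Cd163 fell by 1.94, from 578 ± 326 to 142 ± 51.1 with no overlap between the groups (adjusted p = 0.00636), and Hmox1, which breaks down the captured haem, was not past the threshold (-0.71). Of the genes for serum amyloid A receptors, Fpr2 rose from 4.44, 18.9 and 8.87 to 52.4, 124 and 111 (3.15, adjusted p = 0.00577), Tlr2 rose by 1.93 and Tlr4 by 1.63. Scarb1 and Ager fell by 1.46 and 1.36.

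Of the 17 listed proteases that serpins of this group or their relatives can inhibit, 15 could be tested, 6 were higher past the threshold (background 13.9%) and none was lower (background 10.4%). The granzyme genes Gzma and Gzmb reached the filter through their mutant-labelled values alone. Gzmb, the target of Serpina3n named above, was at 0 in the control-labelled libraries and at 67.6, 206 and 126 in the mutant-labelled ones, at least 40.0-fold higher with the controls set at 3 reads per library (adjusted p = 0.000173). Gzma had 0, 7.56 and 2.53 against 221, 341 and 152 (6.18, SE 0.81, adjusted p = 0.000645). Both granzymes are made by cytotoxic lymphocytes. Among cathepsins, Ctss rose by 1.32 and neither Ctsb (0.19) nor Ctsl (0.81) passed. The neutrophil proteases were low, with Elane under the filter and Ctsg (-0.51) and Prtn3 (-1.17) not past the threshold, and the plasminogen activators Plau and Plat rose by 1.27 and 1.16.

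Of serpins from other families, 7 of 15 tested were higher past the threshold and none was lower, beside the same background shares of 13.9% and 10.4%. Serpinb2, Serpinb9b and Serpinc1 reached the filter through their mutant-labelled values alone. Serpinb9, the intracellular inhibitor of granzyme B, rose by 1.95 and its relative Serpinb9b by 4.53. Serping1, which inhibits the first component of complement, rose by 1.22, and Serpinc1, antithrombin, by 1.75, with an adjusted p of 0.0964. The abundant collagen chaperone Serpinh1 (-0.10) and Serpine2 (-0.38), a thrombin inhibitor of glia, were not past the threshold.

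**Figure D5:**
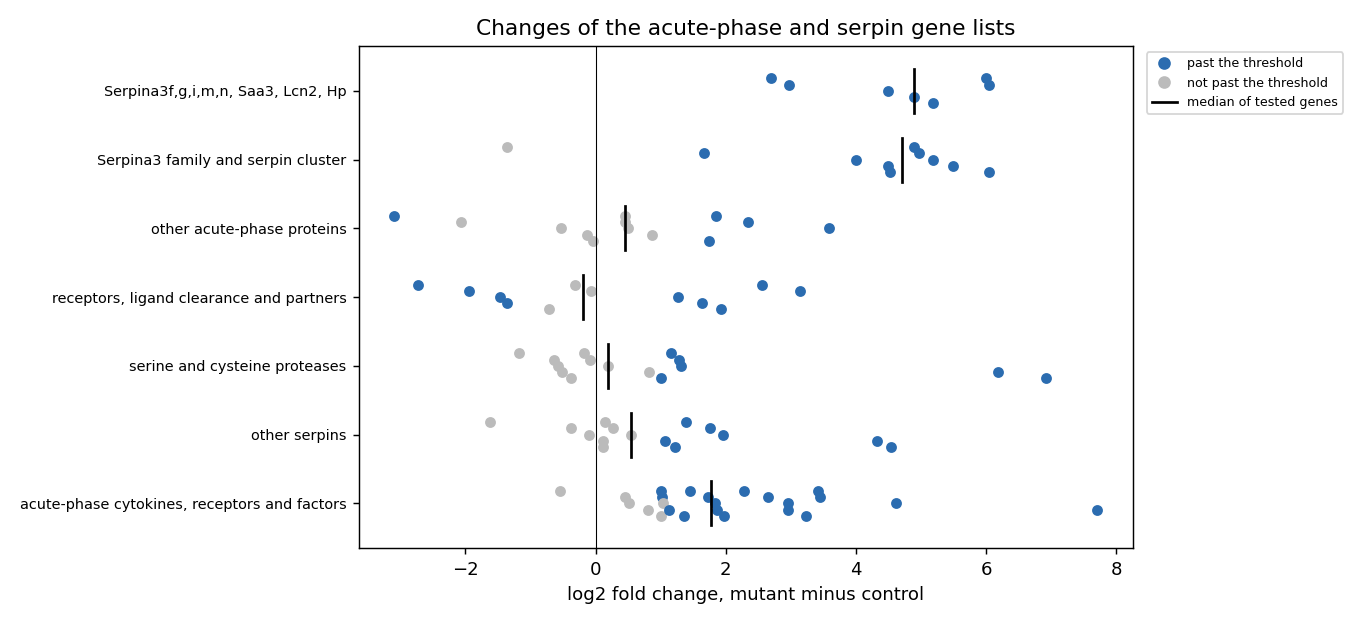
Log2 fold change of each tested gene in the 7 lists, blue when past the threshold and grey when not, with a black bar at the median of each list. The medians of the 8 genes (4.90, over the 7 tested) and of the Serpina cluster (4.71) lie to the right of the others. Those of the other lists run from -0.19 to 1.78. The 8 genes and the cluster share Serpina3f, Serpina3g, Serpina3i and Serpina3n, so their medians are not independent.

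The genes most like each of the 7 in their profile were found by Pearson's r of log2(value + 1) over the 6 libraries. With 2 genotypes in 6 libraries many genes that differ between them correlate, so these are descriptions. Serpina3g was closest to March1 (r = 0.999), Slamf9 and Gpr182, and 28 genes had an r over 0.99 with it. The closest to Serpina3n were Mum1l1 (r = 0.998), Apol6 and Eppk1, to Serpina3f Hs3st4 (0.998), Cemip and Gm867, and to Serpina3i Ptger2 (0.999), Mtnr1a and Bcl11b. Saa3 was closest to the chemokine gene Cxcl16 (0.997), Tnfrsf14 and Chl1. Lcn2 and Hp had 1 gene each over 0.99, among tested genes with or without a symbol, and their closest named genes were Cep83os (0.989) and Gja1 (0.988).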

How the data were processed

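Total RNA of P4 sciatic nerves gave poly-A+ oriented cDNA libraries, sequenced as paired reads. The authors mapped reads to mm10 with STAR 2.4.0, took the FAST DB annotation, counted the reads in the constitutive parts of a gene, and deposited the counts divided by DESeq2 size factors, a normalized signal per gene and library. Dividing each library by its value of 1 read (0.727 to 1.27) gave whole numbers for 100% of values within 0.01 reads, and these recovered reads entered edgeR and DESeq2. No column of per-sample values was left unused (0).

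Genes with a mean of at least 10 in 1 genotype (25802 of 59485) were fitted as log2(value + 1) with limma (lmFit, eBayes with trend), mutant minus control, with Benjamini-Hochberg adjustment over all of them. Fold changes on this scale depend on the pseudocount for low genes, and can exceed the ratio of the group means where some control-labelled libraries are at 0. Past the threshold means an unadjusted p at or under 0.05 and at least 2-fold. The libraries are separate animals, and 3 against 3 allows no exact permutation p under 0.1, so only model p-values are given. Precision is limited by the 3 libraries a group and, for genes near 0 reads, by counting error. Which of these limits it more was not tested. Read floors cover counting error only.

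The members and gene lists were chosen with earlier results of these data known. Named genes are the 8 members, Serpina cluster genes past the threshold, up to 4 passing genes of largest change and up to 2 non-passing genes of highest mean per list, Adar, and the 3 symbols closest in profile to each member. Others, such as the cell markers, Lifr, Stat3, Rela, the granzyme and neutrophil protease genes and the promoter motifs, were chosen after their values were seen. Results were recomputed under 11 other settings, with each of 6 libraries left out and with 1 pair left out. The scripts were tested on simulated data. Promoters came from RefSeq and transcripts from GENCODE. R 4.3.3, limma 3.58.1, edgeR 4.0.16, DESeq2 1.42.0, Python 3.11.15, Biopython 1.88 and matplotlib 3.10.9 were used. Editing, splicing and protein sequences were not analysed here. A few genes that the naming rule covers are not reported here.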

Additional observations from a re-analysis of the deposited data

How the results depend on the processing

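No log2 fold change of the 7 tested genes changed sign in any of the 18 settings that gave a value, the 11 other settings, the 6 fits that left out 1 library and the fit without control replicate 2 and mutant replicate 2. The count of the 7 genes past the threshold ran from 4 to 7. It was 4 with DESeq2, which lost Serpina3f (adjusted p = 0.229) and gave no p for Lcn2 and Hp. It was 6 without the filter on low values, with eBayes without trend, with an adjusted p, without control replicate 2, and without control replicate 2 and mutant replicate 2, each time for the loss of Hp. The range over the leave-one-out fits was 6 to 7. The count over all genes ran from 4706 to 6417, against 6251 in the main analysis, and the cluster's from 7 to 11. The counts of the other lists ran from 7 to 9 for receptors and partners (7 without mutant replicate 1), 5 to 8 for other serpins, 5 to 7 for proteases, 4 to 6 for other acute-phase genes and 15 to 19 for cytokines, receptors and factors. The pseudocount moved Serpina3f from 3.81 (pseudocount 10) to 8.26 (pseudocount 0.1), Serpina3i from 2.69 to 7.46 and Saa3 from 3.49 to 8.27, and each of these genes has 2 control-labelled libraries at 0. Replicate numbers come from the labels, but the samples with the same number did not deviate together (r of -0.06, -0.06 and 0.01), so the numbers were not taken as pairs. A fit with the replicate number as a block also called 7 genes.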

Other observations

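The neighbours of the Serpina cluster, within 500 kb of it on either side, were looked at after the results for the cluster were seen. Only genes with a symbol were taken. Of 14 such genes there, 11 could be tested, 4 were higher and 2 lower past the threshold. The shares over all genes tested, with or without a symbol, were 13.9% and 10.4%. Their median log2 fold change was 0.60. Ifi27l2a, an interferon-induced gene, had 978, 1989 and 427 normalized reads in the control-labelled libraries and 13686, 15057 and 15139 in the mutant-labelled ones (3.96, SE 0.45, adjusted p = 0.000327). As with Serpina3f, Serpina3g and Serpina3n, control replicate 2 was the highest of its group. Its neighbour Ifi27 was not past the threshold (-0.06), and the groups overlapped. Asb2, part of a ubiquitin ligase, rose from 119, 30.2 and 73.5 to 409, 276 and 558 (2.61), and Ddx24 (1.15) and Unc79 (1.17) rose as well. Prima1, which anchors acetylcholinesterase to membranes, fell by 2.27 on the log2 scale, from 4331, 3976 and 4689 to 1358, 724 and 734, and Clmn fell by 1.06.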
